A study of Mus musculus with 12 samples.

Results

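The genes described here are the chemokines and their receptors, taken as every row of the gene table whose symbol is Ccl, Cxcl, Ccr or Cxcr with a number, or Cx3cl1, Cx3cr1, Xcl1, Xcr1 or Ackr1 to Ackr4. This gave 67 of 52636 rows, which carry 61 symbols because extra copies of Ccl27a, Ccl21a, Ccl21b and Ccl19 have rows of their own. Of the 67 rows, 23 passed the filter for testing (at least 10 reads per 20 M, or mega, in at least 3 libraries), 32 were detected but did not pass it, and 12 were at 0 in all libraries. Transcript levels came from polyA RNA of hepatocytes isolated from steatotic (fat-laden) mouse livers, in which viable hepatocytes were parted by lipid content on a Percoll gradient with differential centrifugation, a step that was also meant to leave out dead hepatocytes and non-parenchymal cells. Each of 6 mice, 3 wild type (WT) and 3 with a knockout (KO) of Ptprk (protein tyrosine phosphatase receptor kappa), gave 1 low-fat and 1 high-fat library. The 12 libraries thus form 4 groups of 3, a low-fat and a high-fat group for each genotype. The diet, age and strain of the mice, and the cells in which Ptprk was deleted, are not given in the sources used here. In the text, mice of each genotype are numbered 1 to 3 as in the labels, and a WT and a KO mouse with the same number are different animals.

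Chemokines are small secreted proteins that guide moving cells along a concentration gradient. They act through membrane receptors that couple to inhibitory G proteins, while the atypical receptors (Ackr1 to Ackr4) bind chemokines without that coupling and take them up, transport them or hold them at the cell surface. In the fatty liver, chemokines made by hepatocytes, resident macrophages (Kupffer cells), stellate cells and sinusoidal endothelium are known for recruiting monocytes and lymphocytes. In bulk RNA, fewer cells of a type and less RNA per cell cannot be told apart.

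Levels are deposited values in reads per 20 M, and they carry counting error beside the differences between mice. Estimated depth was lowest at 15.1 M reads (KO mouse 3, high-fat) and highest at 25.0 M (WT mouse 1, low-fat). A count of 3 reads, the limit that a count of 0 allows, therefore corresponds to 2.40 to 3.98 reads per 20 M. Ptprk (ENSMUSG00000019889), the targeted gene, stood at 2724 to 2883 in WT and 1117 to 1364 in KO low-fat libraries, and at 2174 to 2578 and 1179 to 1217 in high-fat libraries. In KO relative to WT its log2 difference came to -1.13 in low-fat (limma adjusted p = 0.0013) and -0.99 in high-fat libraries (limma adjusted p = 0.00501), so transcript remained in each KO library. The 10 hepatocyte markers (Alb, Apob and others) summed to between 783339 and 970397 reads per 20 M in every library, and no gene of the 10 marker lists was at 0 in all libraries. Markers of non-parenchymal cells were present too, and their sums are given beside the genes that moved with them.

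A pair of neighbouring chemokine genes on chromosome 11, Ccl6 and Ccl9, had differences between fractions of opposite sign, and another pair on chromosome 5, Cxcl9 and Cxcl10, are both interferon-induced ligands of Cxcr3. For this reason the 250 bases before the start of each of these 4 genes are printed here, 5′ to 3′ on the strand of the gene, from RefSeq in the GRCm38.p6 build. The deposited reads were mapped to mm9, so these coordinates belong to the RefSeq windows only. Capitals mark matches to any of 6 motifs on either strand: the NF-kB consensus (by its name), the interferon-stimulated response element (by its name), the gamma-activated site (TTCNNNGAA), the C/EBP motif (TTGCNNAA), the core shared by PU.1 and other ETS factors (GAGGAA) and the TATA box (TATAAA).
Ccl6, chr11:83593088-83593337, minus strand: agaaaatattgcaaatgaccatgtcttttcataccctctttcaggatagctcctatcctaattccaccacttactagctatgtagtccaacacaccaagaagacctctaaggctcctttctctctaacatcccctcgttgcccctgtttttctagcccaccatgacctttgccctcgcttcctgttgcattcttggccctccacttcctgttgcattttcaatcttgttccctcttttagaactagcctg
Ccl9, chr11:83578637-83578886, minus strand: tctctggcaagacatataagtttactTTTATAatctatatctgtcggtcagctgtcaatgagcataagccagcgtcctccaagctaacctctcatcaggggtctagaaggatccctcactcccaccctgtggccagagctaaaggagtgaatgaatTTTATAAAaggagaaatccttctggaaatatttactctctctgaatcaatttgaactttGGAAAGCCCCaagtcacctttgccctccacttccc
Cxcl9, chr5:92328080-92328329, minus strand: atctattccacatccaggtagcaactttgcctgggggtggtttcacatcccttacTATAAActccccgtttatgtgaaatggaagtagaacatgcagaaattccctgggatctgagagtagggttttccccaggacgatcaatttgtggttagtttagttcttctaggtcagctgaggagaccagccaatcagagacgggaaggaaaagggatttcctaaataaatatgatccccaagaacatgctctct
Cxcl10, chr5:92348890-92349139, minus strand: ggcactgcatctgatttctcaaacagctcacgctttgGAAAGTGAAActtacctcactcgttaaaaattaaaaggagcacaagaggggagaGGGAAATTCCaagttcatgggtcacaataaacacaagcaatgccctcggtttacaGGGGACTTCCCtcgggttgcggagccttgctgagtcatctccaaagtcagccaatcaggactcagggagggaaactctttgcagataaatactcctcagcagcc
The Ccl6 window held no match to the 6 motifs. That of Ccl9 held an NF-kB match starting at -35 from the gene start and TATA matches at -224, -94 and -92, the last 2 overlapping on opposite strands. The Cxcl9 window held a TATA match at -195, and that of Cxcl10 held NF-kB matches at -159, -104 and -103, the last 2 overlapping, with an interferon-stimulated response element at -213. A window was found for 45 of the 61 symbols and for 16 of the 23 tested genes. An NF-kB match occurred in 11 of those 45 symbols and in 7.25% of all 32851 windows, and a TATA match in 14 symbols and 12.37% of windows. The GAGGAA core was found in 14 symbols and 23.25% of windows, TTGCNNAA in 5 and 9.56%, TTCNNNGAA in 3 and 7.02%, and the interferon-stimulated response element in 3 and 2.98%. Some symbols have several windows, and a symbol was counted when any of its windows held a match. The counts of symbols and the shares of windows are therefore not directly comparable. A match describes letters in the window and is not a site of binding.

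Most reads of these genes were counted to 1 ligand and 1 atypical receptor. Cxcl12, the ligand of Cxcr4 and a homeostatic chemokine, averaged 623 reads per 20 M per kilobase of exon over the 12 libraries. Ackr4, a scavenger of Ccl19, Ccl21 and Ccl25, averaged 565 on the same scale, an uncertain value because in every library its reads stood at 27.3% to 29.3% of those of Acad11, a far more abundant gene that overlaps it on the opposite strand. As counted, together they took 79.3% to 88.8% of the reads of all 67 rows in a library, and all rows together made up 390.6 to 580.8 reads per M reads. The next by level per kilobase were the ligands Ccl9 (141), Cxcl1 (57.2), Cxcl9 (44.6) and Ccl27a (33.6), then the atypical receptor Ackr2 (29.2). The typical receptors were lower on this scale, with Cxcr6 at 7.81, Cxcr4 at 5.58 and Ccr10 at 5.46 reads per 20 M per kilobase.

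Several ligands known from inflamed tissue were low. Ccl2, the monocyte attractant that binds Ccr2, ranged from 0 to 10 reads per 20 M over the 12 libraries. Ccl3 and Ccl4, macrophage inflammatory proteins, each ranged from 0 to 4, and Cxcl2, a neutrophil attractant, from 1 to 15. Ccl22 reached 7, Cxcl14 20, Cxcl17 and Cxcl13 10 each, Cx3cl1 6, Ccl28 4, Ccl27b 3 and Xcl1 3, while Ccl7, Ccl1, Ccl17, Ccl19, Cxcl3, Cxcl5, Ccl8, Ccl11, Ccl12 and Ccl26 never exceeded 2. The receptors that did not pass the filter were Xcr1 (highest library 14), Cxcr2 (13), Ackr3 (12), Ccr7 (11), Cxcr3 (9), Ccr6 (7), Ccr1 (7), Ccr4 (2), Ccr3 (1) and Cxcr1 (1). Ccl20, Cxcl15, Ccr8, Ccl21c, both rows of Ccl21a, the 3 rows of Ccl21b, the second row of Ccl19 and 2 of the 3 rows of Ccl27a were at 0 in every library. Near-identical copies, as in the Ccl21 and Ccl27 families, can lose or split reads in counting, so these zeros are uncertain.

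Ligands and their known receptors were set side by side per kilobase of exon. Cxcl12 stood at 623 reads per 20 M per kilobase, and its receptors Cxcr4 and Ackr3 at 5.58 and 1.02. The ligands of Cxcr3 stood at 44.6 (Cxcl9), 20.4 (Cxcl10) and 15.1 (Cxcl11), and Cxcr3, a receptor of activated T cells, at 1.88. Ccl9 and Ccl6, ligands of Ccr1, stood at 141 and 21.8, and Ccr1 at 0.677. For each of these the ligand was the more abundant transcript. Other receptors stood above a ligand of theirs as counted, with Cxcr5 at 3.45 against 2.25 for Cxcl13, and Cx3cr1 at 2.48 against 0.530 for Cx3cl1. These 2 orders are uncertain, because Cxcl13 (0 to 10 reads per 20 M) and Cx3cl1 (0 to 6) lay around the level of 3 reads. Cxcr5 also shares 110 exon bases with Bcl9l on the opposite strand, a far more abundant gene (mean 1960.92 reads per 20 M). Ccl25 and its receptor Ccr9 stood at 15.2 and 2.40, Ccl27a and Ccr10 at 33.6 and 5.46, and Cxcl16 and Cxcr6 at 23.6 and 7.81.

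**Figure D1:**
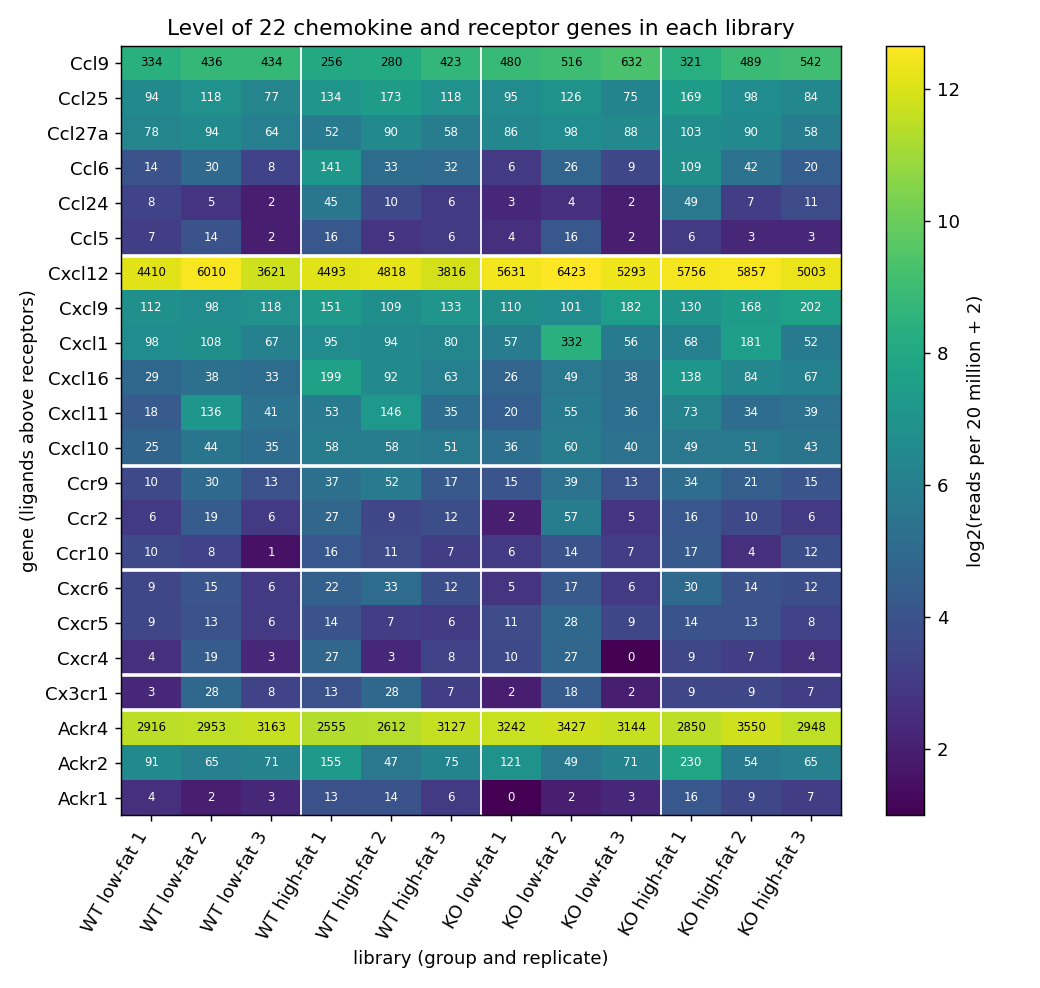
Heat map of 22 tested chemokine and receptor genes (rows, grouped by role) in the 12 libraries (columns, group and replicate), coloured by log2(reads per 20 M + 2), with the deposited value in each cell. Cxcl12 and Ackr4 are the brightest rows in every library, and the high-fat libraries of the mice numbered 1 show the highest Ccl6 and Cxcl16.

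Differences between the fractions were compared first, as the mean of both genotypes, to ask which chemokine genes go with the fat content of the isolated cells. Cxcl16 and Ackr1 rose in high-fat libraries, by 2.63-fold and 2.92-fold. Ccl24 rose and Ccl9 fell when the mouse was a term of the fit, by 2.96-fold and to 0.771 of the low-fat level. The other 19 tested genes passed in neither fit. limma thus called 2 of 23 genes, both higher, where it called 5.77% of all genes (5.05% higher and 0.725% lower). With the replicate block, a term for each mouse, 4 of 23 were called, 3 higher and 1 lower, beside 11% of all genes (6.76% higher and 4.23% lower). Ackr1 and Ccl24 reached 10 reads per 20 M, the level of the filter, only in high-fat libraries. Their calls, and their part in the counts between fractions here and below, are therefore not independent of the filter. At an unadjusted p-value under 0.05, 6 of the 23 were higher and none lower, beside 11% and 7.29% of all genes, and with the block 8 were higher and 3 lower, beside 13.3% and 14.7%. Of the 23, 16 had a log2 fold change above 0, against 45.2% of all genes, and the median was 0.33 against -0.022. By role, 3 of 6 CC ligands, 4 of 6 CXC ligands, 4 of 4 CC receptors, 2 of 3 CXC receptors and 2 of 3 atypical receptors lay above 0, with medians of 0.12, 0.30, 0.48, 0.13 and 0.16, and Cx3cr1 stood at 0.50. In all 6 mice, 6 of the 23 genes (26.1%) were higher in the high-fat library, against 9.96% of all genes. Among them were Cxcl16, Ackr1, Ccl24, Ccl6 and Cxcl9.

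Cxcl16, a membrane-bound ligand of Cxcr6 that also takes up oxidised lipoprotein, stood at 29, 38 and 33 reads per 20 M in WT low-fat libraries 1 to 3 and at 199, 92 and 63 in the WT high-fat libraries. In KO the values were 26, 49 and 38 in low-fat and 138, 84 and 67 in high-fat libraries. Fractions did not overlap in either genotype, and the high-fat libraries of the mice numbered 1 were the highest. On the log2 scale the difference was 1.40 (SE 0.26, limma adjusted p = 0.0109, and 0.0183 with the replicate block). Cxcl16 (ENSMUSG00000018920, chromosome 11) shares 552 exon bases, 18.3% of its exon length, with Zmynd15 on the opposite strand. Zmynd15 stood at 34, 24 and 24 in WT low-fat and 165, 77 and 51 in WT high-fat libraries, and at 17, 37 and 25 and then 136, 64 and 47 in KO. Its log2 fold change was 1.50 (limma adjusted p = 0.0163, and 0.0153 with the replicate block). The strand setting of the counting is not given, so shared reads of the 2 genes cannot be told apart. Cxcr6, the receptor of Cxcl16 on T and natural killer cells, stood at 9, 15 and 6 (low-fat) and 22, 33 and 12 (high-fat) in WT mice 1 to 3, and at 5, 17 and 6 (low-fat) and 30, 14 and 12 (high-fat) in KO mice 1 to 3. In 5 of 6 mice its high-fat library held more, but it did not pass the test (log2 fold change 0.91, SE 0.34, limma adjusted p = 0.178, and 0.0992 with the replicate block).

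Ackr1, the Duffy antigen of venular endothelium and red cells, stood at 4, 2 and 3 reads per 20 M in WT low-fat and 13, 14 and 6 in WT high-fat libraries. KO libraries gave 0, 2 and 3 in low-fat and 16, 9 and 7 in high-fat. Fractions did not overlap in either genotype, but the low-fat values lie at or near the level of 3 reads. Only high-fat libraries took Ackr1 past the filter for testing. On the log2 scale the difference was 1.54 (SE 0.33, limma adjusted p = 0.0187, and 0.0416 with the replicate block). Its size depends on the pseudocount, at 2.14 with 0.5 and 0.72 with 10 in place of 2. Ackr1 (ENSMUSG00000037872, chromosome 1) shares 25.7% of its exon bases with Cadm3 on the same strand. Cadm3 stood at 16, 7 and 20 (low-fat) and 100, 55 and 38 (high-fat) in WT mice 1 to 3, and at 4, 14 and 12 (low-fat) and 61, 60 and 43 (high-fat) in KO mice 1 to 3. Its log2 fold change was 2.13 (limma adjusted p = 0.0045, and 0.00691 with the replicate block). Reads from the shared exon cannot be assigned to 1 of the 2 genes from these values.

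Ccl24, or eotaxin-2, an eosinophil attractant that binds Ccr3, stood at 8, 5 and 2 reads per 20 M in WT low-fat and 45, 10 and 6 in WT high-fat libraries. In KO it stood at 3, 4 and 2 in low-fat and 49, 7 and 11 in high-fat libraries. The high-fat libraries of both mice numbered 1 were far above the rest, and the fractions overlapped in WT but not in KO. On the log2 scale the difference was 1.57, with limma adjusted p = 0.113 without and 0.0407 with the replicate block. As for Ackr1, only high-fat libraries took Ccl24 past the filter for testing. Ccl24 is ENSMUSG00000004814 on chromosome 5.

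Ccl9 and Ccl6 lie next to each other on chromosome 11 (their start windows are printed above) and both bind Ccr1. Ccl9 stood at 334, 436 and 434 reads per 20 M in WT low-fat and 256, 280 and 423 in WT high-fat libraries, and at 480, 516 and 632 and then 321, 489 and 542 in KO. All 6 mice had less of it in their high-fat library, although the fractions overlapped. On the log2 scale the difference was -0.38, with limma adjusted p = 0.285 without and 0.0471 with the replicate block. Lower values in all 6 mice were found for 2 of 23 genes (8.7%) and for 11.6% of all genes. The second gene, Cxcl12, was lower in all 6 mice after rescaling between libraries but in only 3 of 6 on the deposited scale. Ccl6 stood at 14, 30 and 8 in WT low-fat and 141, 33 and 32 in WT high-fat libraries, and at 6, 26 and 9 and then 109, 42 and 20 in KO. Its log2 fold change was 1.70 (SE 0.50), which did not pass the test (limma adjusted p = 0.077, and 0.0562 with the replicate block). Per kilobase of exon, Ccl9 averaged 141 and Ccl6 21.8 reads per 20 M.

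**Figure D2:**
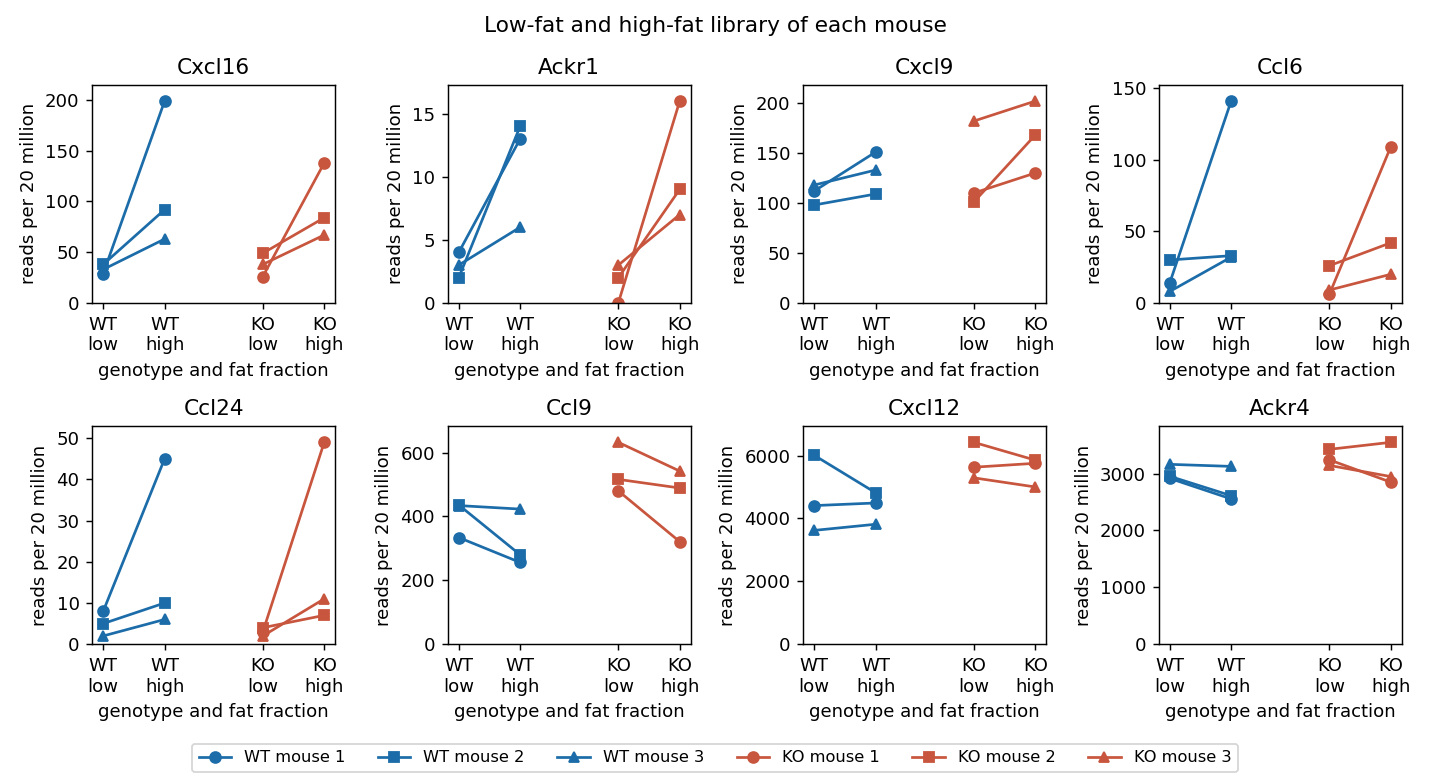
Deposited reads per 20 M of 8 genes in the low-fat and high-fat library of each mouse, with a line joining the 2 libraries of a mouse (blue WT, red KO, one marker shape per mouse number). Cxcl16, Ackr1, Cxcl9, Ccl6 and Ccl24 are higher and Ccl9 lower in the high-fat library of all 6 mice, while Ackr4 is higher in KO mouse 2 and Cxcl12 in 3 mice.

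Both mice numbered 1 had the largest differences between fractions for Ccl6, with log2 differences of 3.07 in WT mouse 1 and 3.64 in KO mouse 1, against 0.17 to 1.67 in the other 4 mice. For Cxcl16 they were 2.61 and 2.16, against 0.74 to 1.27. Markers of other cells moved the same way. The summed level of 9 Kupffer cell markers (Clec4f, Cd5l and others) was 658 to 1341 reads per 20 M (low-fat) and 2287 to 11426 (high-fat) in WT, and 470 to 745 (low-fat) and 2109 to 9919 (high-fat) in KO. Its ratio of high-fat to low-fat was 11.1 and 21.1 in the mice numbered 1 and 1.76 to 3.48 in the others. Ratios of markers are of deposited sums, without the rescaling and pseudocount used for the log2 differences of genes. The 9 monocyte and recruited macrophage markers were summed over 10 rows, because Itgam has a second row that was counted too. They had ratios of 10.2 and 18.7 in the mice numbered 1 and of 0.886 to 3.7 in the others. Their sums were 89 to 318, 329 to 1294, 55 to 438 and 295 to 1027 in the 4 groups in the same order. Lyz2 alone gave 926 of the 1294 and 734 of the 1027. Less abundant members of the list did not all move with it. Ly6c2, for instance, went from 3 to 21 in WT mouse 1 but from 8 to 0 in WT mouse 2. The 6 dendritic cell markers summed to 88 to 176, 142 to 352, 76 to 163 and 146 to 275. Most of these sums came from Zbtb46, which alone gave 225 of the 352 and 181 of the 275. The part of these cells in the differences of Ccl6, Ccl24 and Cxcl16 was not tested.

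Stellate and endothelial markers were higher in the high-fat library of each mouse. The 8 stellate cell markers (Dcn, Col1a1 and others) summed to 246 to 641 (low-fat) and 1919 to 3406 (high-fat) in WT, and 127 to 601 (low-fat) and 2292 to 2765 (high-fat) in KO. The 8 sinusoidal endothelial markers (Stab2, Clec4g and others) summed to 2171 to 2277, 4726 to 11791, 921 to 1850 and 3772 to 7657. The hepatocyte sum had ratios between the fractions of 0.965 to 1.11, and the biliary sum of 0.777 to 0.898. Single hepatocyte markers differed more than their sum. Of the 10, 4 had a log2 fold change above 0. limma called 2 of them higher and 0 lower in both fits, beside 5.05% and 6.76% of all genes called higher. Cyp2e1, for instance, stood at 25608 to 47248 in WT low-fat and 56368 to 68163 in WT high-fat libraries. The part of stellate and endothelial cells in the difference of Ackr1, or of any other gene here, was not tested. With both mice numbered 1 left out, a choice made after seeing the data, limma called none of the 23 genes. Cxcl16 then had a log2 fold change of 0.92 (limma adjusted p = 0.0535) and Ackr1 of 1.24 (limma adjusted p = 0.224). The loss of calls was not particular to these mice. None of the 23 was called either without both mice numbered 2 or without both numbered 3, with Cxcl16 at 1.59 and 1.70.

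A second set of high values was in the low-fat library of KO mouse 2. WT low-fat library 2 was the highest for only 1 of the 23 genes (Cx3cr1, a tie), and for 8.89% of all genes. KO low-fat library 2 held the highest value of 7 of the 23 genes (ties included), which were Cxcl12, Cxcl1, Cxcl10, Ccr2, Cxcr4, Cxcr5 and Ccl5, while it was the highest library for 7.71% of all genes. Ccr2, the receptor of Ccl2 on inflammatory monocytes, stood at 57 there, against 2 and 5 in KO low-fat libraries 1 and 3 and 10 in the high-fat library of the same mouse. Its other values were 6, 19 and 6 (low-fat) and 27, 9 and 12 (high-fat) in WT, and 16 and 6 in the KO high-fat libraries of mice 1 and 3. Cxcr5, the receptor of follicular B cells, stood at 28 in that library and at 6 to 14 in the other 11. Cxcr4, on most leukocytes, stood at 27 there and in WT high-fat library 1, at 19 in WT low-fat library 2, and at 0 to 10 in the rest. Summed neutrophil markers were 132 in KO low-fat library 2 and 66 in WT low-fat library 2, against 6 to 21 in the other low-fat libraries and 21 and 20 in the high-fat libraries of WT and KO mouse 2. They were also high in the high-fat libraries of the mice numbered 1, at 118 in WT and 59 in KO. Most of these sums came from 1 gene, Csf3r, at 90 and 48 in the low-fat libraries of KO and WT mouse 2. Csf3r stood at 77 and 50 in the high-fat libraries of WT and KO mouse 1, where S100a8 stood at 16 and 2. Summed B and plasma cell markers were 290 and 189 in the low-fat libraries of KO and WT mouse 2, of which Ighm alone gave 180 and 123. They were 14 to 75 in the other low-fat libraries, and WT high-fat library 1 held 147. Summed T and NK cell markers ranged from 30 to 91 (low-fat) and 34 to 141 (high-fat) in WT, and from 47 to 104 (low-fat) and 41 to 81 (high-fat) in KO. The 91 and 104 were the low-fat libraries of WT and KO mouse 2. Cd4 alone gave 38 and 33 of these, stood at 26 to 50 in the other low-fat libraries, and gave 84 of the 141. Summed monocyte and recruited macrophage markers were 438 and 318 in the low-fat libraries of KO and WT mouse 2, of which Lyz2 alone gave 241 and 198. They were 55 to 127 in the other low-fat libraries, and WT high-fat library 1 held 1294. The part of leukocytes in these values was not tested.

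Ccl5, a lymphocyte and macrophage product, ranged from 2 to 16 reads per 20 M over the 12 libraries. Cx3cr1, a receptor of patrolling monocytes, ranged from 2 to 28, with 28 in both WT libraries of mouse 2. Ccr10, the receptor of Ccl27a, ranged from 1 to 17. None of these was called, and their log2 fold changes between fractions were -0.086, 0.50 and 0.47.

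**Figure D3:**
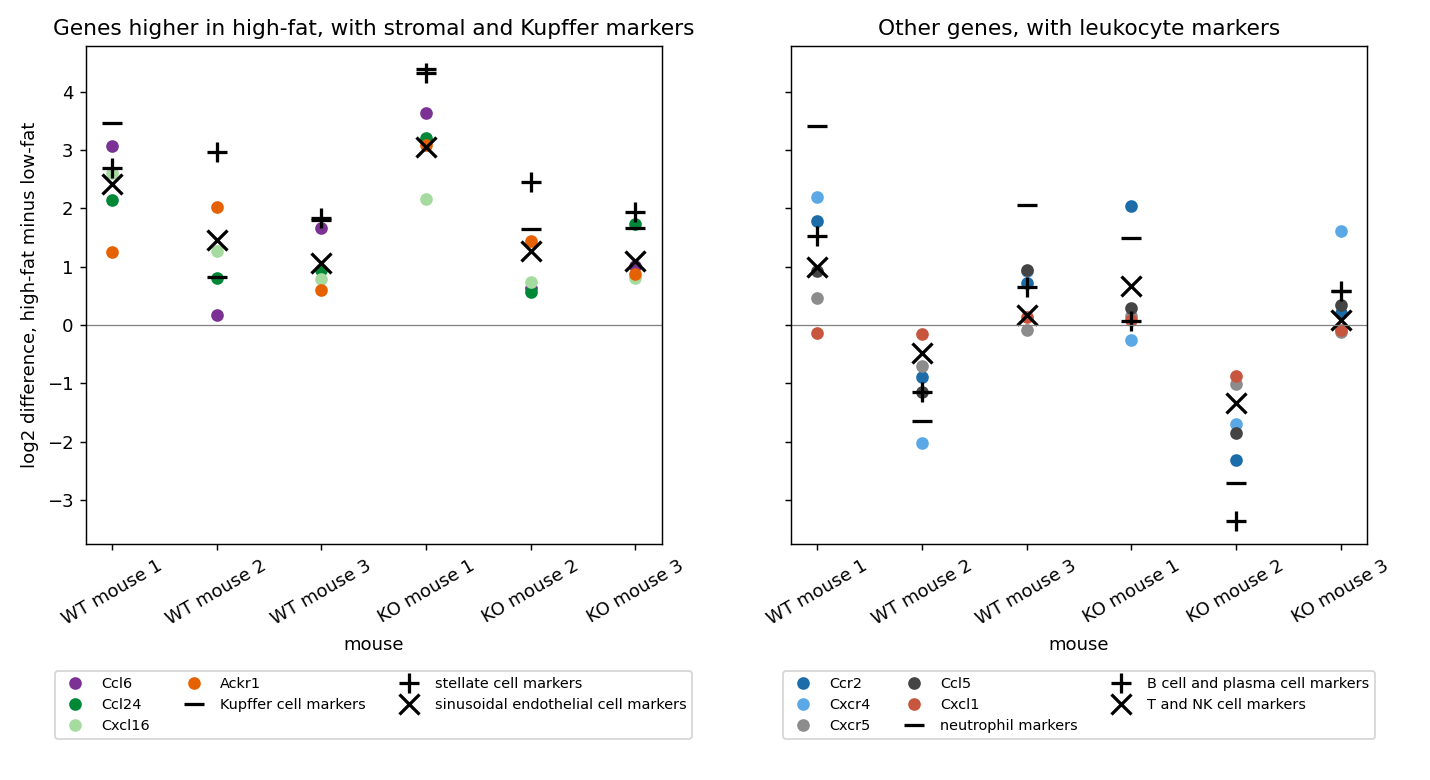
Log2 difference of the high-fat from the low-fat library in each mouse, for 4 genes higher in all 6 mice with Kupffer, stellate and endothelial marker sums (left) and for 5 other genes with neutrophil, B and T or NK marker sums (right). Coloured points are genes, rescaled between libraries and with a pseudocount of 2. Black symbols are summed markers, as log2 ratios of deposited sums without either step, so their heights are not directly comparable with those of genes. Among the genes, Ccl6 in the mice numbered 1 is highest on the left (3.07 and 3.64), and Ccr2 in KO mouse 2 is lowest on the right (-2.31).

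The ligands of Cxcr3 are induced by interferon-gamma. Cxcl9 stood at 112, 98 and 118 reads per 20 M (low-fat) and 151, 109 and 133 (high-fat) in WT mice 1 to 3, and at 110, 101 and 182 (low-fat) and 130, 168 and 202 (high-fat) in KO mice 1 to 3. It was higher in the high-fat library of all 6 mice, by a log2 fold change of 0.26 that did not pass the test (limma adjusted p = 0.504, and 0.162 with the replicate block). Cxcl10 stood at 25, 44 and 35, then 58, 58 and 51, then 36, 60 and 40, then 49, 51 and 43 in the same order. Its WT fractions did not overlap, whereas its KO fractions did, and the interaction of genotype and fraction did not pass (log2 -0.59, SE 0.33, limma adjusted p = 1). Cxcl11 stood at 18, 136 and 41, 53, 146 and 35, 20, 55 and 36, and 73, 34 and 39 in the same order of groups. WT mouse 2 was far above the others in both fractions. Cxcl11 shares 41.7% of its exon bases with Gm2673, a processed pseudogene on the opposite strand, which stood at 66 and 77 in the libraries of WT mouse 2 and at 9 to 38 in the other 10.

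Cxcl1, the neutrophil attractant that binds Cxcr2, stood at 98, 108 and 67 reads per 20 M (low-fat) and 95, 94 and 80 (high-fat) in WT mice 1 to 3, and at 57, 332 and 56 (low-fat) and 68, 181 and 52 (high-fat) in KO mice 1 to 3. Both libraries of KO mouse 2 were above all others, and the remaining 10 lay between 52 and 108. Cxcr2 stood at 13 in KO low-fat library 2 and at 0 to 6 elsewhere. The log2 fold change of Cxcl1 between fractions was -0.17 (SE 0.42, limma adjusted p = 0.877).

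Ccl25, a ligand of Ccr9 in gut and thymus, stood at 94, 118 and 77 reads per 20 M (low-fat) and 134, 173 and 118 (high-fat) in WT mice 1 to 3, and at 95, 126 and 75 (low-fat) and 169, 98 and 84 (high-fat) in KO mice 1 to 3. It was not called (log2 fold change 0.33, limma adjusted p = 0.383, and 0.156 with the replicate block). Ccr9 stood at 10, 30 and 13, 37, 52 and 17, 15, 39 and 13, and 34, 21 and 15 in the same order, with log2 fold change 0.49 (limma adjusted p = 0.522). Both overlap other genes, Ccl25 with Elavl1 over 2.7% of its exon bases and Ccr9 with AC165425.1 over 18.8%. Ccl27a, a ligand of Ccr10 best known from skin, stood at 78, 94 and 64 (low-fat) and 52, 90 and 58 (high-fat) in WT mice 1 to 3, and at 86, 98 and 88 (low-fat) and 103, 90 and 58 (high-fat) in KO mice 1 to 3. The groups overlapped.

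The abundant atypical receptor Ackr4 stood at 2916, 2953 and 3163 reads per 20 M (low-fat) and 2555, 2612 and 3127 (high-fat) in WT mice 1 to 3, and at 3242, 3427 and 3144 (low-fat) and 2850, 3550 and 2948 (high-fat) in KO mice 1 to 3. Its log2 fold change between fractions was -0.16 (SE 0.083, limma adjusted p = 0.357, and 0.13 with the replicate block). Ackr4 (ENSMUSG00000079355, chromosome 9) lies within Acad11, an acyl-CoA dehydrogenase gene on the opposite strand, and shares 479 exon bases with it, 8.9% of its own. Acad11 averaged 10756 reads per 20 M. Reads from the shared bases cannot be assigned to 1 of the 2 genes without the strand. The Ackr4 values, its rank and its share of reads included, are therefore uncertain. Ackr2, a scavenger of inflammatory CC chemokines, stood at 91, 65 and 71 (low-fat) and 155, 47 and 75 (high-fat) in WT mice 1 to 3, and at 121, 49 and 71 (low-fat) and 230, 54 and 65 (high-fat) in KO mice 1 to 3. The high-fat libraries of the mice numbered 1 were again the highest, and the log2 difference was 0.16 (SE 0.38, limma adjusted p = 0.87). In all, 13 of the 23 tested genes overlap another annotated gene and 10 share exon bases with one.

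Within each genotype the fractions were compared with fewer libraries. In WT limma called none of the 23 genes and 0% of all genes, with 5 of the 23 higher at an unadjusted p-value under 0.05 (Cxcl16, Ccl6, Cxcl10 and Ackr1 among them) against 8.05% of all genes, and none lower against 3.1%. The replicate block called none either, with 7 higher and 1 lower at that level, against 10.1% and 9.24% of all genes. WT fractions did not overlap for 5 genes (21.7%), those 4 among them, against 10.4% of all genes that were higher without overlap. In KO limma called none of the 23 and 0.839% of all genes, with 5 higher at an unadjusted p-value under 0.05 (Ackr1, Cxcl16, Ccl24 and Ccl6 among them) against 6.88% of all genes, and none lower against 2.08%. The replicate block again called none, against 1.7% of all genes, with 5 higher and 1 lower at the unadjusted level, against 8.39% and 6.44%. KO fractions did not overlap for 4 genes, Ccl24, Cxcl16 and Ackr1 among them (17.4%, against 8.54% of all genes). The median log2 fold change of the 23 genes was 0.44 in WT and 0.11 in KO, beside -0.015 and -0.029 for all genes. Whether the difference between fractions depended on genotype was tested as an interaction. limma called none of the 23 genes and 0% of all genes with or without the replicate block, and none of the 23 had an unadjusted p-value under 0.05 in either fit, against 0.0423% of all genes higher and 0.103% lower without the block and 0.0906% and 0.308% with it.

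Knockout and wild type were compared next, to ask which chemokine genes go with the loss of Ptprk. No chemokine or receptor gene was called in either fraction. Cxcl12 and Ccl9 were the 2 genes whose KO libraries all lay above WT in 1 of the fractions. The estimates ran from -0.75 (Cx3cr1) to 0.58 (Ccr10) in low-fat and from -0.77 (Ccl5) to 0.50 (Ccl9) in high-fat libraries, on the log2 scale. limma called none of the 23 genes in low-fat and none in high-fat libraries, where it called 0.00604% of all genes in each, which was Ptprk. At an unadjusted p-value under 0.05 there was 1 gene of the 23 in each fraction, Cxcl12, which was higher, against 0.706% (low-fat) and 0.821% (high-fat) of all genes higher and 1.01% and 1.2% lower. With the replicate number as a block there were 2, Cxcl12 and Ccl9, both higher, against 1.5% and 1.78% of all genes higher and 1.74% and 2.16% lower. That block called none of the 23 genes and again 0.00604% of all genes in each fraction.

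Cxcl12 stood at 4410, 6010 and 3621 reads per 20 M in WT low-fat and 5631, 6423 and 5293 in KO low-fat libraries. In high-fat libraries it stood at 4493, 4818 and 3816 in WT and 5756, 5857 and 5003 in KO. The genotypes did not overlap in the high-fat libraries, while WT mouse 2 lay within the KO range in the low-fat libraries. The log2 fold changes were 0.34 (SE 0.14) in low-fat and 0.35 (SE 0.14) in high-fat libraries, each with limma adjusted p = 1. Ccl9, whose values are given above, did not overlap between genotypes in the low-fat libraries (480 to 632 in KO, 334 to 436 in WT) and had log2 fold changes of 0.44 and 0.50 (SE 0.25 each, limma adjusted p = 1). Higher values without overlap were thus found for 1 of 23 genes (4.35%) in each fraction, against 2% and 2.02% of all genes. On the log2 scale the difference was above 0 for 15 of 23 genes in low-fat and 9 of 23 in high-fat libraries, against 48.8% and 46.6% of all genes.

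**Figure D4:**
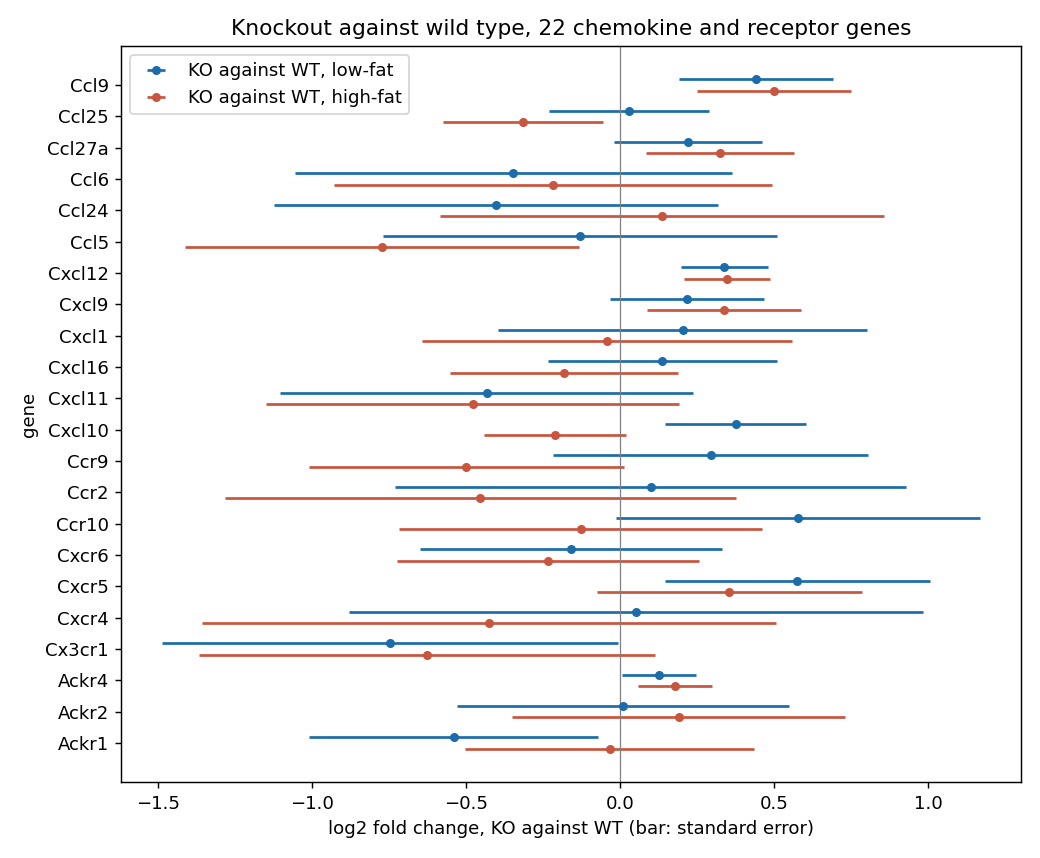
Log2 fold change of KO against WT for 22 tested genes in low-fat (blue) and high-fat (red) libraries, with bars of 1 standard error (3 libraries per group). Cxcl12 (0.34 and 0.35) and Ccl9 (0.44 and 0.50) have points above 0 in both fractions, and none of the 23 genes passed the test.

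The machinery around the chemokines was read from 4 gene lists. Their counts are to be read beside the shares of all genes between the fractions, of which 45.2% lay above 0, 5.05% were called higher and 0.725% lower without the block, and 6.76% were called higher and 4.23% lower with it. Of 38 genes of receptor signal transduction (G protein subunits, kinases, arrestins), 30 had higher levels in high-fat libraries, with a median log2 fold change of 0.50 against -0.022 for all genes. limma called 3 of the 38 higher and 0 lower, and 5 higher and 1 lower with the replicate block, so that few genes of the list passed. Arrb1, the arrestin that desensitises these receptors, rose by 1.64 on the log2 scale (limma adjusted p = 0.0106), and Gng11, a G protein gamma subunit, by 0.82 (limma adjusted p = 0.0319). With the replicate block Gng2 and Prkcb also rose and Rgs16 fell (limma adjusted p = 0.0343, 0.0495 and 0.00455). Rgs16 also fell with the block between the KO fractions alone (limma adjusted p = 0.0311). The 2 genes of the list with the most reads were Rgs16 (mean 2945.4 reads per 20 M) and Rac1 (2916.0), a small GTPase of cell movement that was not called. Of 22 tested genes of other chemoattractant systems, 16 had higher levels (median 0.49), with 4 called higher and 1 lower, and 5 and 1 with the replicate block. The complement receptors C3ar1 and C5ar2, the chemerin receptor Cmklr1 and Csf1r, the macrophage growth factor receptor, rose by 2.01, 1.47, 2.04 and 1.62 on the log2 scale, while Sdc1, a heparan sulfate proteoglycan of hepatocytes that can hold chemokines, fell by 0.46 (limma adjusted p = 0.0131, 0.0106, 0.0211, 0.0361 and 0.014). The 2 with the most reads were Sdc4 (mean 13698 reads per 20 M), which was not called, and Sdc1 (7650.2). Il34, a ligand of Csf1r, was the further gene that rose with the block (limma adjusted p = 0.0425). Csf1r is itself among the Kupffer cell markers summed above, so its rise is not separate from theirs. The part of macrophages in its difference was not tested.

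Of 22 tested genes of the cytokine and NF-kB pathway, 12 had higher levels in high-fat libraries (median 0.018), and limma called 2 higher and 0 lower, but 1 higher and 2 lower with the replicate block. Tlr4, the receptor of endotoxin, rose by 2.05 (limma adjusted p = 0.0185) and Il1a, a cytokine, by 1.11 on the log2 scale (limma adjusted p = 0.0461), a call that Il1a lost with the replicate block (limma adjusted p = 0.0529). With the block Tlr4 still rose, while Ticam1, a Toll-like receptor adaptor, and Rela, an NF-kB subunit, fell (limma adjusted p = 0.0304, 0.0101 and 0.0421). Chuk and Ikbkg, kinase complex subunits with the most reads of this list (means 3099.9 and 1846.3 reads per 20 M), were not called. Of 24 interferon pathway genes, 15 had higher levels (median 0.079) and limma called 3 of the 24 higher and 0 lower, and 4 higher and 0 lower with the block. These were Gbp5 (1.65), Ifit2 (1.23) and Ifit3 (0.61 on the log2 scale, limma adjusted p = 0.0354, 0.0173 and 0.0151), joined by Oasl2 with the block (limma adjusted p = 0.0479). Iigp1 and Jak1, with the most reads (means 5819.6 and 3294.4 reads per 20 M), were not called. Between KO and WT none of the genes of the 4 lists was called in either fraction or fit. The interferon pathway genes had a log2 fold change above 0 in KO for 21 of 24 in low-fat and 20 of 24 in high-fat libraries, with medians of 0.17 and 0.16, beside 48.8% and 46.6% of all genes above 0.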

How the data were processed

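Gene-level values of 12 polyA RNA libraries were analysed. The values are a score: the authors scaled the read counts of each deposited library to 20 M and rounded up, as read from the values (columns sum to 20.01 M). The reads were mapped to mm9 per the submitters' processing notes. The aligner, counter, annotation and strand setting are not given in the sources used here. Depth was estimated from the spacing of low values (largest error 0.015% over 6 simulated libraries). A floor of 3 reads covers counting error only.

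From these values, genes with at least 10 in at least 3 libraries (16563) were rescaled by the trimmed mean of M values (TMM, trimming 30% of M and 5% of A values) and transformed as log2(value + 2). Fold changes on this scale understate the change of low genes. limma 3.58.1 in R 4.3.3, with an intensity trend, fitted 4 group means over the 12 libraries. P-values are two-sided, with Benjamini-Hochberg adjustment over all genes, and calls required an adjusted p-value under 0.05. The fit, made for 6 comparisons, was tested on simulated data. Without the block, a log2 change of 1 was recovered for 62% (low-fat) and 57% (high-fat) of changed genes between genotypes. For the mean difference between fractions it was recovered for 71%, and for the interaction for 33% (19% with the block). A gene that was not called may therefore still differ. Exon lengths and overlaps are from GENCODE M21. The 2 libraries of a mouse share its name in the labels, and their deviations from group means correlated at 0.498, 0.469 and 0.582 in WT and 0.0443, -0.00869 and 0.46 in KO. Same-numbered WT and KO mice are different animals (0.251, 0.396 and 0.296 in low-fat, 0.49, -0.171 and 0.381 in high-fat libraries). The replicate block is a term per mouse between fractions and in the interaction, and per replicate number between genotypes. Other alternatives changed the scaling, pseudocount, filter, trend or libraries. Every row matching the name rule is accounted for. Values in each library are given for the 15 tested genes of highest mean and any called gene, and other values were chosen after they were seen. The gene rule and lists were chosen with earlier results of these data known. Some genes counted here are not reported by name.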

Additional observations from a re-analysis of the deposited data

Results flagged for a closer look

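The log2 difference of Cxcl1 between the high-fat and low-fat library of KO mouse 2 was -0.881, while in the other 5 mice it lay between -0.155 and 0.141. Its gap to the nearest mouse was 0.711 of the whole range of the 6 mice, above the critical value of 0.625. The same test was made for 23 genes, and chance alone flags about 1 in 20 such groups. In KO mouse 2 Cxcl1 stood at 332 reads per 20 M (low-fat) and 181 (high-fat).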

How the results depend on the processing

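In the mean of both genotypes the 2 calls between fractions (Cxcl16 and Ackr1) became 4 with the replicate block and 5 with a same-mouse correlation (Ackr1, Ccl24, Ccl6 and Cxcl16 among them). A filter of 50 left 11 of the genes and 1 call, Cxcl16. Leaving out 1 library gave 1 to 4 calls, with 1 without KO high-fat replicate 1 (Ackr1 1.42, limma adjusted p = 0.0511) and 4 without KO low-fat replicate 2 (Ccl6 among those added). Leaving out both mice of a number, an alternative chosen after seeing the data, gave 0 calls for each of the numbers 1, 2 and 3. Cxcl16 was then 0.92, 1.59 and 1.70 (limma adjusted p = 0.0535, 0.112 and 0.0501) and Ackr1 1.24, 1.45 and 1.96 (limma adjusted p = 0.224, 0.182 and 0.0787), with 359, 0 and 244 genes called in all. In WT the same-mouse correlation called 1 gene, Cxcl16 (limma adjusted p = 0.0378), and in KO 1, Ackr1 (limma adjusted p = 0.0435). The WT median log2 fold change of 0.44 ranged from 0.29 to 0.97 when 1 library was left out, the highest without WT low-fat replicate 2, and was 0.0089 without both mice numbered 1. The replicate block changed no other call among the 23 genes. No result changed sign beyond its error under the alternatives run, and the cause of the changes was not tested. Values near 3 reads, such as Ackr1 and Ccl24 in low-fat libraries, are limited by depth.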
